A study of Mus musculus with 4 samples.

Results

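The 10 genes described here were grouped as zymogen granule and acinar secretion genes of the pancreas: Gp2, Zg16, Sycn, Cuzd1, Rnase1, Dnase1, Spink1, Klk1, Cckar and Rab3d. They were chosen by name, as a functional group, out of 55291 gene symbols, with earlier results of these data known. All 10 were found under these symbols in each of the 4 mouse pancreas RNA sequencing libraries. Both libraries labelled control came from Pdx1-Cre+, poh1f/+ mice, in which 1 copy of poh1 was floxed. Both libraries labelled knockout came from Pdx1-Cre+, poh1f/f mice, in which both copies were floxed, so every library carried the Cre transgene. Poh1 is an older name of Psmd14, a deubiquitinating subunit in the lid of the proteasome. Pdx1-Cre acts in the embryonic progenitors of acinar, duct and islet cells, so blood, fat and connective tissue cells of the same pancreas are not its targets. The age, sex and strain of the mice were not given in the sources used here and neither was the number of animals behind a library. The p-values therefore measure the spread between these libraries, which may be technical.

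Acinar cells pack digestive enzymes into zymogen granules below their apical membrane and release them when a meal raises cholecystokinin and vagal acetylcholine. Cckar, the cholecystokinin receptor, receives that signal, and the small GTPase Rab3d sits on the granule and takes part in its exocytosis. Gp2 is the main glycoprotein of the granule membrane, Cuzd1 is another membrane protein of the granule, and Sycn (syncollin) and the lectin Zg16 line the inner face of that membrane. Rnase1 and the tissue kallikrein Klk1 are secreted enzymes carried as cargo, and Spink1 is the trypsin inhibitor stored with them. Dnase1 is a secreted endonuclease whose level in these libraries did not follow that of the digestive enzymes.

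Total counts per library ran from 22875618 to 27849730. Values are CPM, counts scaled to a common library size after TMM adjustment for composition, and a single count equalled 0.0342 to 0.0455 CPM. The lowest of the 10 genes in any library was at 0.466 CPM (Zg16, 13 counts), so all 10 passed the low-count filter, and each was above the filter's level in all 4 libraries. Psmd14 was at 61.6 and 52.9 CPM in the controls, and at 65.9 and 65.2 CPM in the libraries labelled knockout (log2 fold change 0.20 ± 0.11 SE, edgeR adjusted p = 0.26). The RNA of the targeted gene was thus not lower under the knockout label, so each difference given here is one between labels. Counts over a whole gene in whole tissue need not show loss of a floxed exon in part of its cells. Deletion itself was not tested. The 22 digestive enzymes that define the acinar cell took 1.85% of counts in control replicate 1, 0.373% in control replicate 2, 0.0293% in knockout replicate 1 and 0.1% in knockout replicate 2. Counting intervals (95%, Wilson) on these shares ran from 1.84 to 1.85%, 0.371 to 0.376%, 0.0286 to 0.0299% and 0.0993 to 0.102%, and cover counting error only.

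Of the 10 genes, Gp2 and Cuzd1 fell in the libraries labelled knockout, Rab3d was nearly equal in all 4 libraries, and 8 of the 10 were higher in control replicate 1 than in control replicate 2. Together the 10 genes took 0.187% of counts in control replicate 1 (95% Wilson interval 0.186 to 0.189%) and 0.0331% in control replicate 2 (0.0324 to 0.0338%). They took 0.0103% in knockout replicate 1 (0.00994 to 0.0107%) and 0.0246% in knockout replicate 2 (0.024 to 0.0252%). In all, 2 of the 10 fell, none rose and 8 did not pass the test (edgeR quasi-likelihood test, adjusted p under 0.05 over 19134 genes). Of all genes tested, 9.95% fell and 12.1% rose. The median log2 fold change of the 10 was −3.42, against −0.0018 over all genes tested. Both libraries labelled knockout were below both controls for 7 of the 10, Rab3d by a narrow margin among them, against 33.7% of all genes, and above both for 1, Dnase1, against 34.4%. In whole tissue, fewer acinar cells and less granule RNA per acinar cell cannot be told apart.

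**Figure D1:**
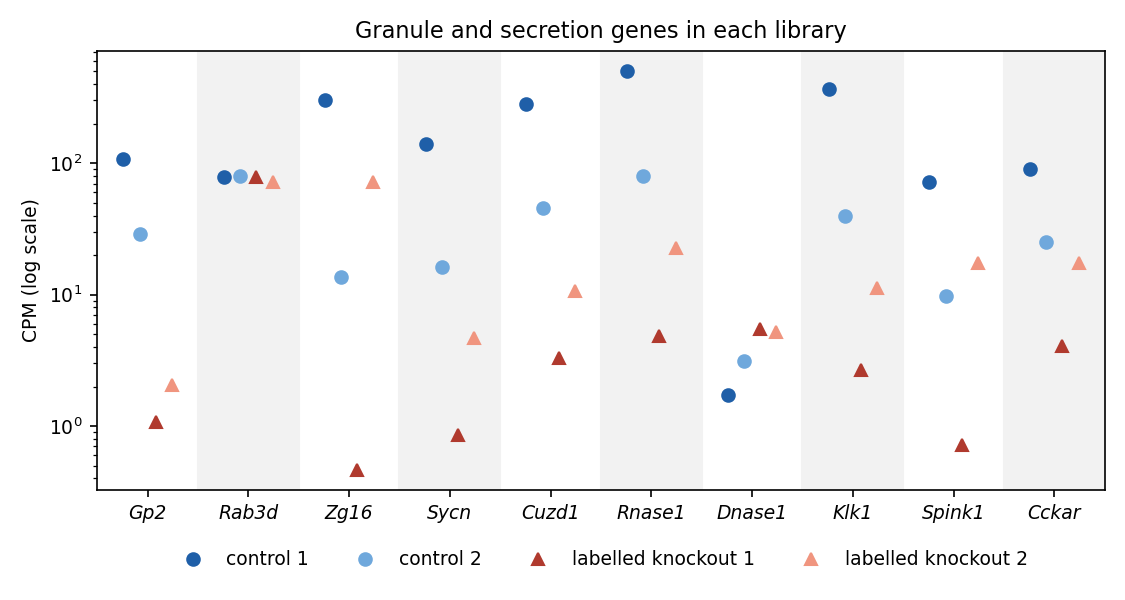
CPM of each of the 10 genes on a log axis, with 1 point per library (circles, control; triangles, labelled knockout). Rab3d lies between 71.8 and 80.2 CPM in all 4 libraries, whereas Rnase1 spans 4.87 to 505 CPM.

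A single order of libraries recurred among the genes that were lower. For 6 of the 10 (Gp2, Sycn, Cuzd1, Rnase1, Klk1 and Cckar) the order was control replicate 1, control replicate 2, knockout replicate 2, knockout replicate 1. Zg16 and Spink1 departed from it in that knockout replicate 2 stood above control replicate 2. Rab3d followed neither pattern. Dnase1 had the reverse of the common order, with its libraries labelled knockout close to each other. Of all genes tested, 33.7% had both libraries labelled knockout below both controls, and the share with the full order was not counted.

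Gp2, the glycosylphosphatidylinositol-anchored protein of the granule membrane, had the largest fitted difference of the 10. Control replicate 1 had 108 CPM, control replicate 2 had 28.7, knockout replicate 1 had 1.07 and knockout replicate 2 had 2.05. The groups did not overlap: the lower control was 14-fold above the higher library labelled knockout. In the fit the level was 43.6-fold lower (95% interval 10.7 to 177; log2 fold change −5.45 ± 0.79 SE, edgeR adjusted p = 0.013). Leaving out any 1 library kept the call, with log2 fold changes from −6.11 to −4.19 and edgeR adjusted p from 3.3e-06 to 0.0448. With limma-voom it was not called (adjusted p = 0.0573). The gene lies on chromosome 7 (119442537 to 119459285, GRCm38, minus strand). Gp2 also marks M cells of the intestinal lining. Of 4 M cell markers Spib, which B cells also express, was the 1 that rose, and their sum was 116 and 123 CPM in controls and 257 and 245 CPM in the libraries labelled knockout.

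Cuzd1, a granule membrane protein with CUB and zona pellucida domains, was the other gene that passed. It was at 281 and 45.3 CPM in controls, and at 3.3 and 10.6 CPM in knockout replicates 1 and 2. All 4 libraries kept the common order, and the lower control was 4.27-fold above the higher library labelled knockout. The fitted level was 23.4-fold lower (95% interval 3.58 to 153; −4.55 ± 1.06 SE on the log2 scale, edgeR adjusted p = 0.0392). Without control replicate 1 the log2 fold change was −2.70 and the call was lost, as it was with limma-voom (adjusted p = 0.0827). It was also lost with the replicate number as a block and with a filter of at least 1 CPM on average (edgeR adjusted p = 0.0643 and 0.0501). Cuzd1 (chromosome 7, 131308554 to 131322292, minus strand) lies within the span of Fgfr2 on the same strand, with no exon in common in GENCODE M21.

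Sycn, Rnase1 and Klk1 had fitted differences of the same size as Cuzd1 and missed the threshold narrowly. Sycn, the granule protein syncollin (chromosome 7, 28540885 to 28542209), was at 140 and 16.3 CPM in controls and at 0.86 and 4.66 CPM in knockout replicates 1 and 2. Its log2 fold change was −4.81 ± 1.29 SE (edgeR adjusted p = 0.0549). The groups did not overlap, yet control replicate 1 was 8.56-fold above control replicate 2. Rnase1, the pancreatic ribonuclease (chromosome 14, 51144998 to 51146785), was at 505 and 79.3 CPM in controls and at 4.87 and 22.5 CPM in the libraries labelled knockout. Its log2 fold change was −4.41 ± 1.16 SE (edgeR adjusted p = 0.0528), and its controls differed 6.37-fold. Klk1, tissue kallikrein (chromosome 7, 44225360 to 44229618), was at 370 and 39.6 CPM in controls and at 2.69 and 11.2 CPM in the libraries labelled knockout. Its controls differed 9.34-fold, the widest gap of these 3 genes, and its log2 fold change was −4.87 ± 1.29 SE (edgeR adjusted p = 0.053). DESeq2 called all 3 lower, with adjusted p of 0.0116, 0.00874 and 0.00818. So did edgeR without knockout replicate 1 or without knockout replicate 2, whereas without control replicate 1 their log2 fold changes were −2.55, −2.53 and −2.50 and none was called.

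Klk1 belongs to a cluster of near-identical mouse kallikreins, so the split of reads between it and its relatives is uncertain. The 13 Klk1b relatives together reached only 11.6 and 4.43 CPM in controls and 3.08 and 4.07 CPM in the libraries labelled knockout. Of these, 2 passed the count filter and neither passed the test. Klk1b5 was at 3.96 and 0.502 CPM in controls and 0.0716 and 0.205 CPM under the knockout label, and Klk1b22 was between 2.34 and 2.91 CPM throughout. Klk1 is abundant in salivary gland as well. Of 8 salivary markers 6 (Smgc, Bpifa2, Prol1, Dcpp1, Dcpp2 and Cst10) had 0 counts in every library, Muc19 was at 0.137 CPM or less, and Aqp5, which other glands also express, was at 2.36 to 9.51 CPM.

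**Figure D2:**
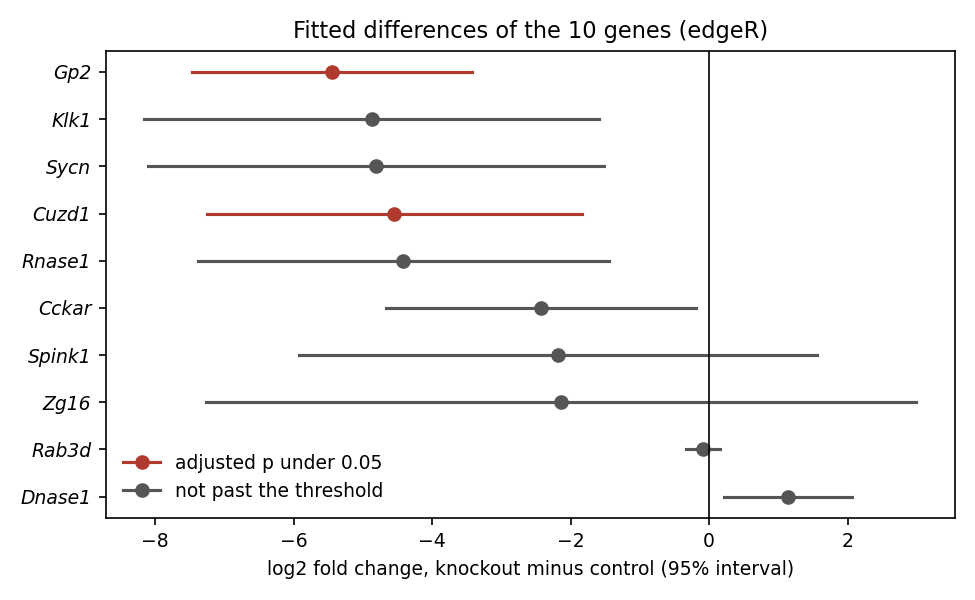
Fitted log2 fold change of each gene (point) with its 95% interval (line), knockout label minus control label, n = 2 libraries per group. Gp2 and Cuzd1 are past the threshold, and the interval of Rab3d is the narrowest, from −0.33 to 0.15.

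Zg16 and Spink1 were low in knockout replicate 1 and high in knockout replicate 2. Zg16, the lectin of the granule matrix (chromosome 7, 127050156 to 127087328), was at 303 and 13.6 CPM in controls and at 0.466 and 71.4 CPM in knockout replicates 1 and 2. The 2 libraries labelled knockout thus differed 153-fold, and the groups overlapped. Spink1 (chromosome 18, 43728082 to 43737557) was at 72.1 and 9.83 CPM in controls and at 0.716 and 17.4 CPM in knockout replicates 1 and 2, a 24.2-fold gap under 1 label. Neither passed the test (log2 fold changes −2.13 ± 2.01 and −2.18 ± 1.47 SE; edgeR adjusted p = 0.482 and 0.332). Their fitted intervals ran from −7.26 to 2.99 and from −5.92 to 1.57. Leaving out knockout replicate 2 gave −8.39 for Zg16 and −5.82 for Spink1, both called (edgeR adjusted p = 0.000364 and 0.000145). Leaving out control replicate 1 gave 1.42 for Zg16, the opposite direction, and −0.11 for Spink1.

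Intestinal markers were highest in knockout replicate 2. By CPM, Zg16 and Spink1 were highest in control replicate 1. As a share of the summed CPM of the digestive enzymes they were highest in knockout replicate 2 (7.46% and 1.81%). Zg16 is also a product of intestinal goblet cells, and Spink1 is expressed in the gut. The 6 goblet cell markers (Muc2, Fcgbp, Clca1, Tff3, Spink4 and Agr2) summed to 6.37 and 27.8 CPM in controls, 3.44 CPM in knockout replicate 1 and 261 CPM in knockout replicate 2. All 6 were highest in knockout replicate 2, Clca1 was at 0 in control replicate 1 and Tff3 at 0 in knockout replicate 1. The 6 enterocyte markers summed to 19.7 and 24.6 CPM in controls, 5.41 CPM in knockout replicate 1 and 391 CPM in knockout replicate 2. Alpi and Sis had no counts outside knockout replicate 2, where they reached 25.9 and 85.9 CPM. None of the 6 goblet markers passed the edgeR test between the groups. Of the enterocyte markers 1, Vil1, passed the count filter and it was not called. The part of these cells in the Zg16 and Spink1 values was not tested.

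**Figure D3:**
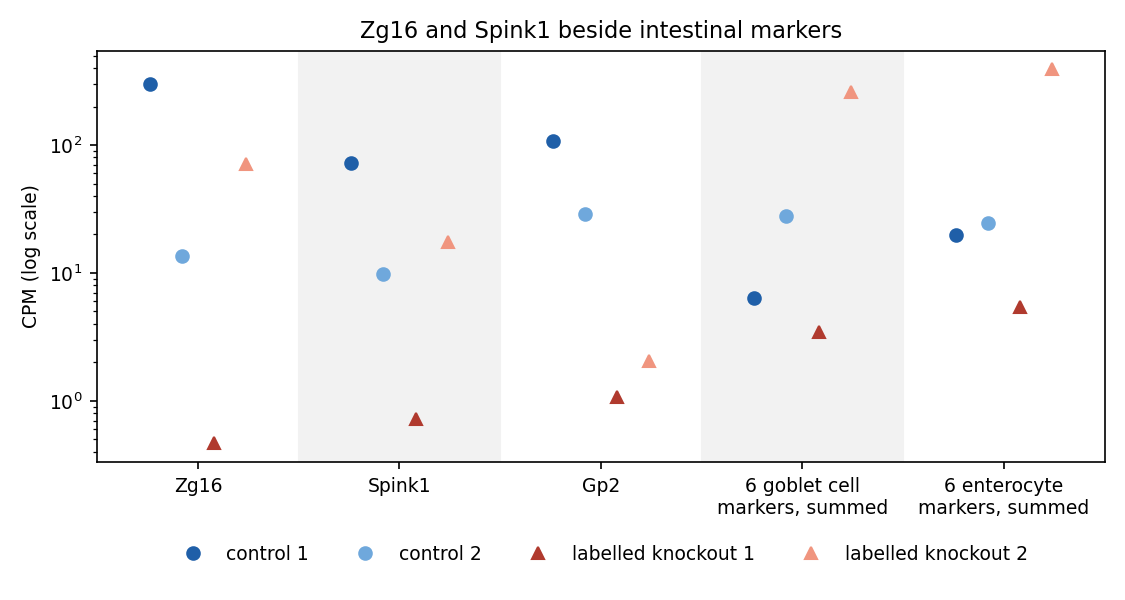
CPM on a log axis of Zg16, Spink1 and Gp2 and of the summed goblet cell and enterocyte markers, 1 point per library. Knockout replicate 2 is the highest library for both marker sums (261 and 391 CPM), and for Zg16 and Spink1 it lies above control replicate 2, while for Gp2 it lies at 2.05 CPM, below both controls.

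Cckar, the receptor that couples cholecystokinin to granule release, was at 90.7 and 25.3 CPM in controls and at 4.05 and 17.4 CPM in knockout replicates 1 and 2. The groups did not overlap, but the lower control was only 1.45-fold above the higher library labelled knockout. The log2 fold change was −2.43 ± 0.88 SE and did not pass (edgeR adjusted p = 0.109). Without knockout replicate 2 the value was −3.84, and −1.74 with only knockout replicate 1 left out, both called (edgeR adjusted p = 6.13e-05 and 0.0147), and −1.23 without control replicate 1 (0.451). Cckar lies on chromosome 5 (53697776 to 53707705, minus strand).

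Rab3d, the GTPase of the granule surface, was nearly equal in all libraries. It was at 79 and 80.2 CPM in controls and at 78 and 71.8 CPM in knockout replicates 1 and 2 (chromosome 9, 21907491 to 21918192). The log2 fold change was −0.09 ± 0.09 SE (edgeR adjusted p = 0.537), and 0.0095 when libraries were scaled by their totals alone. Its 95% interval, from 0.797 to 1.11 times the control level, excluded the differences fitted for Gp2, Cuzd1, Sycn, Rnase1 and Klk1. Rab3d is also expressed outside the acinar cell, for example in mast cells. The part of cells other than acinar cells in its level was not tested. The 5 mast cell markers summed to 27.2 and 21.3 CPM in controls and 95.4 and 32.6 CPM in knockout replicates 1 and 2, and none passed the test. The other Rab3 genes, which serve exocytosis in neurons and endocrine cells, did not pass either. Rab3b was at 3.18 and 4.64 CPM in controls against 1.29 and 14.4 CPM, and Rab3c at 4.09 and 9.71 against 1.07 and 24.4 CPM, both high in knockout replicate 2.

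Dnase1, the secreted endonuclease, was the 1 gene above both controls in both libraries labelled knockout. It had 38 and 75 counts in controls and 153 in each of the libraries labelled knockout, or 1.73 and 3.14 CPM against 5.48 and 5.24 CPM. The log2 fold change was 1.14 ± 0.36 SE and did not pass (edgeR adjusted p = 0.0827), while DESeq2 called it (adjusted p = 0.047). Over 504 of its exonic bases Dnase1 (chromosome 16, 4036942 to 4040024, plus strand) overlaps the antisense gene Gm15879, and over 54 bases it overlaps Trap1, a mitochondrial chaperone gene on the other strand. Without the strand setting, reads of these genes cannot be told apart. Gm15879 had 17 and 19 counts in controls and 40 and 26 in the libraries labelled knockout, and Trap1 rose, with a log2 fold change of 0.62 (edgeR adjusted p = 0.0128). The relative Dnase1l3, a DNase secreted by dendritic cells and macrophages, went from 1.55 and 2.09 CPM in controls to 135 and 148 CPM (log2 fold change 6.27 ± 0.18 SE, edgeR adjusted p = 0.00153). Dnase1l1 fell, from 58.1 and 54.6 to 34.4 and 32.5 CPM (−0.75 ± 0.11 SE, edgeR adjusted p = 0.0122).

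The order of the 10 genes by level was compared per kilobase of exon, since CPM favours long transcripts. In controls Rnase1 was highest at 295 ± 304 CPM per kilobase (SD, n = 2), followed by Klk1 at 190 ± 217, Sycn at 140 ± 157 and Zg16 at 126 ± 163. Each SD holds the gap between the 2 control libraries, which these 4 genes shared, and is not the spread of a difference between genes. Control replicate 1 carried the means (509, 343, 251 and 241 CPM per kilobase). The order among these 4 was the same in both controls, and differences between them were not tested. In control replicate 2 alone Rnase1 (80 CPM per kilobase), Klk1 (36.7) and Sycn (29.3) still led, but Zg16 (10.8) was below Cuzd1 (20.1), Rab3d (19.1), Gp2 (14.4) and Spink1 (13.5). By the mean of both controls Gp2 was at 34.3 ± 28.2 and Rab3d at 19 ± 0.215, and Dnase1 was last at 0.789 ± 0.323. In the libraries labelled knockout Zg16 was first at 28.6 ± 39.9, from 1 library, and Rab3d second at 17.9 ± 1.05, while Gp2 was last at 0.783 ± 0.347 CPM per kilobase.

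Setting each gene against the summed CPM of the 22 digestive enzymes in the same library narrowed the spread for part of the group. Cuzd1 was 1.46% and 1.18% of that sum in controls and 1.14% and 1.11% in knockout replicates 1 and 2. Rnase1 was 2.63% and 2.06% in controls and 1.69% and 2.35% in the libraries labelled knockout, although its CPM spanned 104-fold between control replicate 1 and knockout replicate 1. Klk1 lay between 0.933% and 1.92%, and Sycn between 0.299% and 0.727%. Gp2 was lower relative to the enzymes in both libraries labelled knockout, at 0.373% and 0.215%, than in controls, at 0.565% and 0.747%. Cckar was higher relative to them, at 1.41% and 1.82% against 0.472% and 0.657%. Spink1 was at 0.249% to 0.375% in 3 libraries and at 1.81% in knockout replicate 2. Zg16 went from 0.162% in knockout replicate 1 to 7.46% in knockout replicate 2. Rab3d and Dnase1 did not fall with the enzymes. Rab3d was 0.411% of the enzyme sum in control replicate 1 and 27.1% in knockout replicate 1, and Dnase1 0.009% and 1.9%. These ratios were not tested.

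**Figure D4:**
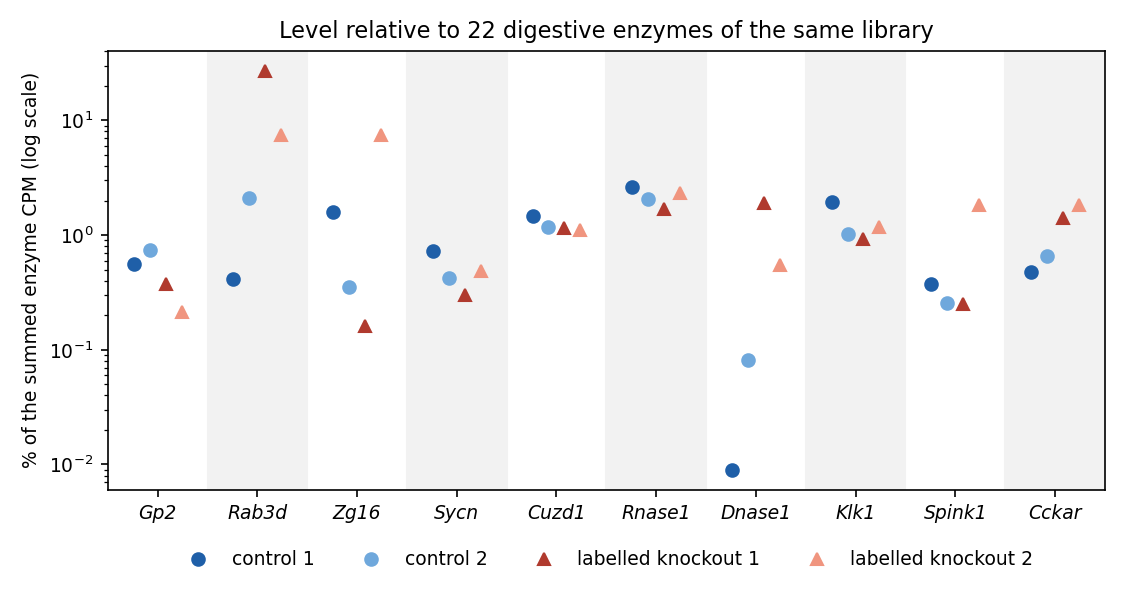
Level of each gene as a percentage of the summed CPM of 22 digestive enzymes in the same library, on a log axis, 1 point per library. Cuzd1 lies within 1.11 to 1.46% and Rnase1 within 1.69 to 2.63% in all 4 libraries, while Rab3d spans 0.411 to 27.1%.

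The enzymes themselves fell in 14 of 21 tested cases, none rose and 7 did not pass (edgeR; median log2 fold change −5.21). Ctrb1, a chymotrypsinogen, went from 3874 and 1218 CPM in controls to 130 and 368 CPM (−3.36 ± 0.76 SE, edgeR adjusted p = 0.037). Pnliprp1, a lipase-related protein, went from 2411 and 574 to 34.4 and 108 CPM (−4.39 ± 0.93 SE, edgeR adjusted p = 0.0308). Cpb1, carboxypeptidase B1, went from 1937 and 252 to 7.81 and 44.5 CPM (−5.39 ± 1.36 SE, edgeR adjusted p = 0.0474). All 3 calls were lost without control replicate 1, and those of Ctrb1 and Cpb1 also without control replicate 2 (edgeR adjusted p = 0.0555 and 0.0603). With control replicate 1 left out 2 enzymes were called and the median was −2.78, whereas 22 of 22 were called with knockout replicate 2 left out. Of 5 other acinar-restricted genes tested, 2 fell, Serpini2, an acinar serpin, by 7.24 and Pdia2, a pancreatic disulfide isomerase, by 4.71 in log2 units (edgeR adjusted p = 0.0213 and 0.0441). Leaving out control replicate 1 ended the call of Pdia2 (0.126 by edgeR), and limma-voom called neither. Erp27, an endoplasmic reticulum protein, was at 31.8 and 5.06 CPM in controls and 1.58 and 3.56 CPM under the knockout label, and was not called.

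Of 8 transcription factors of the acinar cell, 4 fell and none rose (edgeR; median −1.23). Rbpjl, the subunit that replaces Rbpj in the acinar PTF1 complex, went from 88 and 20.2 CPM in controls to 2.4 and 7.19 CPM (−3.49 ± 0.87 SE, edgeR adjusted p = 0.0468). Gata6, a zinc finger factor of the acinar lineage, fell by 0.59 ± 0.12 SE in log2 units (edgeR adjusted p = 0.0279). Nr5a2, a nuclear receptor of the acinar programme chosen after its values were seen, fell by 1.13 in log2 units (edgeR adjusted p = 0.0445). Xbp1, a regulator of the secretory pathway in many cell types, was at 334 and 276 CPM in controls and 318 and 254 CPM in the libraries labelled knockout. No factor of this list was called once either control was left out, and Gata6 was not called without knockout replicate 2. The log2 fold change of Rbpjl was −2.07 without control replicate 1, and that of Xbp1 changed sign under 3 alternatives. The calls of Rbpjl and Nr5a2 were also lost with the replicate block and with a filter of at least 1 CPM on average. That of Rbpjl was lost with limma-voom too, and that of Nr5a2 with scaling by library totals alone.

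Of 22 genes of the exocytosis machinery, which many secretory cells use, 4 fell, 1 rose and 17 did not pass (edgeR, median −0.26). Over all genes tested 9.95% fell, 12.1% rose and 14910 of 19134 did not pass. The 3 most abundant were Tpd52, a calcium-responsive protein of the secretory route, Scamp2, a carrier membrane protein, and Stxbp2, a partner of apical syntaxins. Tpd52 fell from 240 and 185 to 102 and 118 CPM (−0.95 ± 0.17 SE, edgeR adjusted p = 0.0194), and Scamp2 (−0.27) and Stxbp2 (−0.23) did not pass. The other 3 that fell were named after their values were seen. Rab27b, a GTPase of secretory granules, went from 24.1 and 20.9 to 7.95 and 10.9 CPM (−1.25 ± 0.21 SE, edgeR adjusted p = 0.0183). Stx3, a syntaxin, fell by 0.73 and Vamp8, a granule SNARE protein, by 0.59 in log2 units (edgeR adjusted p = 0.036 and 0.0442). The gene that rose was Unc13d, which primes the granules of cytotoxic lymphocytes, from 19.2 and 20 to 50 and 51.4 CPM (1.37 ± 0.11 SE, edgeR adjusted p = 0.00384). Without control replicate 1 none of the 4 falls was called, and the log2 fold changes were −0.75 for Tpd52, −1.15 for Rab27b, −0.76 for Stx3 and −0.39 for Vamp8. Rab27b and Stx3 were also lost without control replicate 2, Stx3 without knockout replicate 1, and Vamp8 without either library labelled knockout. All 6 lymphocyte markers rose beside Unc13d, summing to 35.6 and 20.1 CPM in controls and 626 and 625 CPM in the libraries labelled knockout; their part in its rise was not tested.

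Of 20 receptor and calcium signalling genes around Cckar, 2 fell, 2 rose and 16 were not called by edgeR, near the shares over all genes (9.95% lower and 12.1% higher; list median −0.10, a value whose sign changed without control replicate 1). Atp2a2, the calcium pump of the endoplasmic reticulum, was at 402 and 470 CPM in controls and 332 and 297 CPM in the libraries labelled knockout. Atp2b1, a calcium pump of the plasma membrane, and the kinase Prkcd, with log2 fold changes of −0.18 and −0.06, did not pass, nor did Atp2a2 (edgeR adjusted p = 0.074). Named after their values were seen, Sctr, the secretin receptor, and Vipr2, a receptor of vasoactive intestinal peptide, fell by 0.98 and 1.02 in log2 units (edgeR adjusted p = 0.0456 and 0.0252). Plcb1, a phospholipase C, and Itpr2, a calcium release channel, rose by 1.18 and 0.80 (edgeR adjusted p = 0.0223 and 0.0244). None of the 4 was called without control replicate 1, and Vipr2 was also lost without control replicate 2 or knockout replicate 1. Chrm3, the muscarinic receptor of the acinar cell, was at 3.01 to 4.51 CPM in all libraries. Duct markers moved beside Sctr, which duct cells also express: 5 of 6 fell, from sums of 2388 and 1949 CPM to 654 and 651 CPM. Blood endothelial markers moved beside Plcb1 and Itpr2, with 3 of 4 higher and sums of 370 and 495 CPM against 708 and 707 CPM. Markers of lymphocytes (6 of 6) and adipocytes (4 of 5) rose as well, with mean sums of 27.8 and 397 CPM in controls against 625 and 2419 CPM. The part of these cells was not tested.

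Among the family relatives of the granule genes, 3 of 12 tested fell and 1 rose (edgeR; median 0.15). The sign of that median was not stable: it was −0.02 without control replicate 1, −0.32 without knockout replicate 1, −1.60 without knockout replicate 2, −0.32 with the replicate block, −0.48 with limma-voom and −1.01 without a low-count filter, which tests 22 of these genes. The number that fell was 0 without control replicate 1, 6 without knockout replicate 1 and 8 without knockout replicate 2. Besides the DNases named above, Rnase4, a secreted ribonuclease made in many tissues, fell from 435 and 330 to 241 and 178 CPM (−0.87 ± 0.22 SE, edgeR adjusted p = 0.0465). Ang, angiogenin, which shares its promoter and first exons with Rnase4, so that reads may be split between them, fell by 1.14 ± 0.21 SE in log2 units (edgeR adjusted p = 0.0209) and was named after its values were seen. Both calls were lost without control replicate 1, Rnase4 also without control replicate 2 or knockout replicate 2, and that of Dnase1l1 without control replicate 1 (edgeR adjusted p = 0.163, 0.0834 and 0.0603 without control replicate 1). The call of Dnase1l3 held with each library left out. The Gp2 relative Umod was at 0.5 and 0.46 CPM in controls and 0.0716 and 0.137 CPM in the libraries labelled knockout.

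Outside these lists, the genes with the profile closest to the median of the 10 were sought over the 4 libraries, by Euclidean distance of centred log2 CPM. Reg3d, a secreted lectin of the Reg family, was nearest at a distance of 0.39. It was followed by the trypsinogen-like Gm2663 at 0.79, the trypsinogen Try10 at 0.88 and 1810028F09Rik, a long non-coding RNA gene, at 0.95. For comparison, Rnase1 lay at 0.53, Sycn at 0.70, Gp2 at 1.91, Zg16 at 3.41, Rab3d at 4.68 and Dnase1 at 5.96. Reg3d went from 61.4 and 9.71 CPM in controls to 0.788 and 3.56 CPM (edgeR adjusted p = 0.0595). The RNA gene 1810028F09Rik lies 880 bases downstream of Rnase1 on the same strand of chromosome 14 and went from 34.7 and 5.1 to 0.358 and 1.03 CPM (edgeR adjusted p = 0.0371; 0.116 without control replicate 1). With 4 libraries this likeness is a description.

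The promoters of 5 of the 6 genes with the common library order, all but Cckar, are shown because these genes varied together over the libraries, with that of Rab3d, which did not, for contrast. Sequences come from RefSeq on GRCm38.p6, which had an entry for 7 of the 10 genes. Each line gives 100 bases, 5′ to 3′ on the gene's strand, that end at the RefSeq start site or, where GENCODE M21 starts the gene earlier, just before its first exon. Capitals mark any match on either strand to the E-box CANNTG, the RBPJ-type site TTTCCCA, the NR5A2-type site AAGGTCA, the GATA-type site AGATAA or the XBP1-type site ACGTG. The stretches are chr7:119459286-119459385 (minus strand) for Gp2, chr7:131322293-131322392 (minus) for Cuzd1, chr7:28540785-28540884 (plus) for Sycn, chr14:51146786-51146885 (minus) for Rnase1, chr7:44225260-44225359 (plus) for Klk1 and chr9:21918193-21918292 (minus) for Rab3d.
Gp2: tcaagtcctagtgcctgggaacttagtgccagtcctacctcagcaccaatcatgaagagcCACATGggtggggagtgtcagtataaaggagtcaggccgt
Cuzd1: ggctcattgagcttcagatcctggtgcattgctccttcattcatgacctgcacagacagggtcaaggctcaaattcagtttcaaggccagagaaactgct
Sycn: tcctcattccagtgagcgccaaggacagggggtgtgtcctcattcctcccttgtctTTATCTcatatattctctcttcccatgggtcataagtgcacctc
Rnase1: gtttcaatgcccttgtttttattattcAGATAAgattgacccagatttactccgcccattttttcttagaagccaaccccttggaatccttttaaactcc
Klk1: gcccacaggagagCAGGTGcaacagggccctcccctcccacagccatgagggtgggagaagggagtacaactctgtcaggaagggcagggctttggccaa
Rab3d: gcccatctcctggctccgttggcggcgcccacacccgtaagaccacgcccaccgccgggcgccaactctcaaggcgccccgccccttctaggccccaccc

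These windows held few of the motifs searched. Gp2 and Klk1 each have 1 E-box in the stretch shown, and Sycn and Rnase1 each have 1 GATA-type match, whereas Cuzd1 and Rab3d have no match there. Over the full 250 bases before the start site, 5 of the 8 windows of these 7 genes held an E-box (Dnase1 has 2 start sites). The share was 66.2% of 32851 RefSeq promoters, and 16 of 18 windows of the digestive enzymes held an E-box. The E-box form CACCTG was in 1 of the 8 windows, that of Klk1, against 17.2% of all promoters and 12 of 18 windows of the digestive enzymes. The RBPJ-type site was in 0 of the 8, against 6.82% of all promoters and 5 of the 18 enzyme windows, some of which belong to near-identical copies. The GATA-type match was in 3 of the 8 (Gp2, Sycn and Rnase1), against 9.99% of all promoters and 4 of the 18 enzyme windows. The NR5A2-type match was in 1 of the 8 (Klk1), against 4.08% of all promoters and 3 of the 18 enzyme windows. Both Dnase1 windows, which overlap each other, held the XBP1-type match, against 16.6% of all promoters and 1 of the 18 enzyme windows. CACCTG is 1 form of CANNTG and overlaps it, and ACGTG overlaps CANNTG where the E-box reads CACGTG. A match is a run of letters, not a bound site.

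How many of the 10 genes were called depended on which libraries and which test were used. Without control replicate 1, 1 gene (Gp2) was called lower, against 2.08% of all genes tested in that fit. Without control replicate 2, 3 were called lower (Gp2, Cuzd1 and Klk1), against 5.58% of all genes. Without knockout replicate 1 it was 6 of 10 (8.49% of all genes), and without knockout replicate 2 it was 8 of 10 (7.65%), all but Rab3d and Dnase1. In these fits 1 library stood for its label and was assumed to vary like the pair under the other label. DESeq2 called 5 lower and 1 higher, against 12.8% and 15.0% of all genes, and limma-voom called 0 lower, against 9.94%, with 6 of the 10 at an unadjusted p under 0.05. Without a low-count filter 5 were lower (5.49% of all genes), and with a mean of at least 1 CPM 1 was lower (10.3%). With the replicate number as a block 1 was lower (7.48%). The median over the 10 genes ranged from −5.86 without knockout replicate 2 to −1.86 without control replicate 1.

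**Figure D5:**
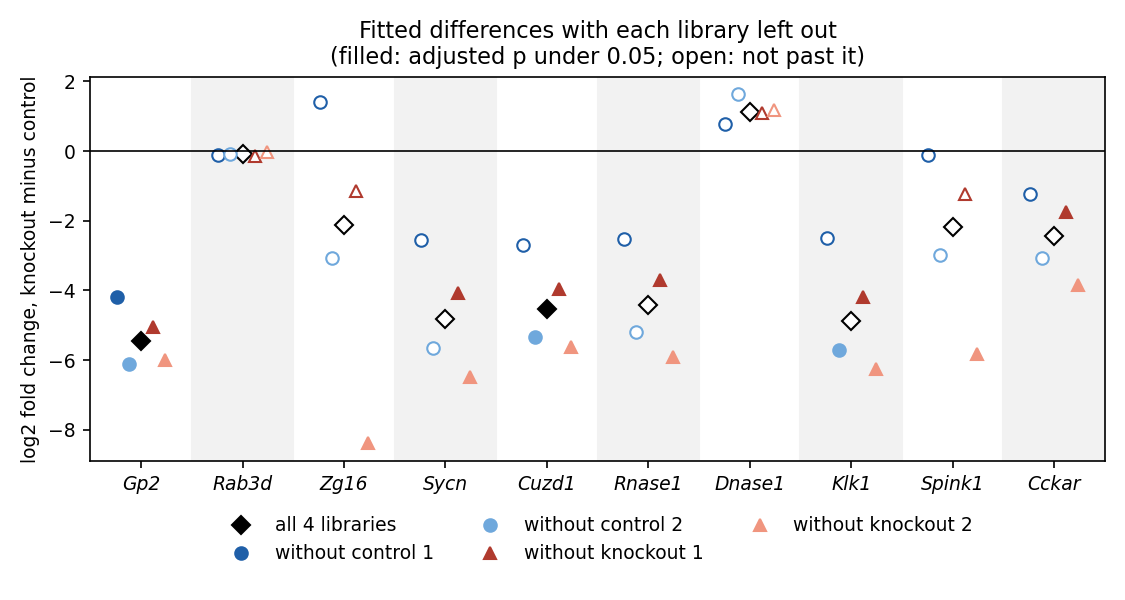
Log2 fold change of each gene, knockout label minus control label, from all 4 libraries (diamond) and with each library left out (circles, a control left out; triangles, a library labelled knockout left out); filled symbols passed an adjusted p of 0.05. Gp2 is filled throughout (−6.11 to −4.19), and Zg16 ranges from −8.39 to 1.42.

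Markers of other pancreatic and neighbouring cells differed between the same libraries. Besides the lymphocyte, duct and endothelial lists above, adipocyte markers rose in 4 of 5 cases, summing to 235 and 559 CPM in controls and 2807 and 2031 CPM in the libraries labelled knockout. Islet markers fell in 3 of 6 cases (1543 and 872 against 384 and 129 CPM), macrophage markers in 3 of 5 (2018 and 1994 against 1472 and 1355 CPM) and fibroblast markers in 3 of 5 (18436 and 21417 against 7909 and 7039 CPM). The part of cell composition in the granule gene differences was not tested.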

How the data were processed

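RNA of 4 mouse pancreas libraries, 2 per label, was sequenced, and the deposited files hold whole-number counts per gene, as the file headers show, with 1 file per library. The submitters' processing notes name the build GRCm38 and list STAR 2.7.6a and featureCounts 2.0.1 beside the quality and trimming tools FastQC 0.11.9 and Trim Galore 0.6.6, as well as SAMtools 1.7; the strand setting and the annotation were not given in the sources used here.

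Groups come from the sample labels. Counts of 55291 symbols were filtered with filterByExpr, scaled by TMM and tested with edgeR 4.0.16 (R 4.3.3; quasi-likelihood F test, all 4 libraries, no covariate), with Benjamini-Hochberg adjustment over the 19134 genes tested and a threshold of 0.05. SEs were obtained from the fold change and the root of its F statistic, and intervals are 95%. A test of this code on simulated counts came first. DESeq2 1.42.0, limma-voom (limma 3.58.1), other scalings and filters, a replicate block and leaving out each library were the alternatives. Depth of 22875618 to 27849730 counts gives counting errors far below the spread between libraries: chi-square per degree of freedom was 34.3 within controls and 24.5 within the knockout label, so no library was a repeat of another.

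Coordinates come from GENCODE M21 (GRCm38), which held 53292 of the symbols, and promoters from RefSeq on GRCm38.p6. The genes and all lists were chosen with earlier results of these data known. Named were the 10 genes, the 3 tested genes of highest mean CPM in each pathway list, and the 4 nearest profiles among genes whose mean reached 10 CPM in the higher of the groups. All other list genes and overlapping genes named, beside Psmd14 and cell type markers, were chosen after their values were seen. A gene of the transcription factor list is counted but not reported by name here.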

Additional observations from a re-analysis of the deposited data

How the results depend on the processing

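With all 4 libraries 2 of the 10 granule genes were called lower and 0 higher by edgeR. The count lower was 5 without a low-count filter, 1 with a mean of at least 1 CPM, 1 with the replicate block, 5 with DESeq2 (and 1 higher) and 0 with limma-voom, and with 1 library left out it ran from 1 to 8, with 0 higher. Over all genes, 2320 were called higher and 1904 lower, and leaving out 1 library gave 702 to 2338 higher and 424 to 1696 lower. The replicate block gave 1960 and 1432; same-numbered libraries did not deviate together (r = 0.0282 over 19134 genes), so the numbers were not taken to pair them. Scaling by library totals alone made 64.9% of all calls higher, against 54.9%. The log2 fold change of Zg16 ran from −8.39 to 1.42 with 1 library left out, the latter without control replicate 1. With totals alone Rab3d was at 0.0095, Prkcd at 0.043 and Xbp1 at 0.0041. Leaving out 1 library gave −0.17 to 0.040 for Prkcd and −0.27 to 0.062 for Xbp1. The cause of these changes was not tested. Over the 10 genes and 12 alternatives each, 95 of 120 values kept direction and side of the threshold, 5 lost the call, 18 gained it and 2 reversed. For the other named genes these numbers were 328 of 408, with 65, 10 and 5. The spread of 2 libraries per label, not depth, limits the precision.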
